A study of Mus musculus with 10 samples.

Results

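The translation initiation factor genes of the mouse were followed in splenic B cells of animals with liver fibrosis and of wildtype animals. The members were the protein-coding genes whose symbol begins with Eif followed by a number from 1 to 6, which gave 55 of the 54532 genes in the deposited count table. Of these, 53 had enough counts to be tested. Eif4ebp3, with 25 counts over all fibrosis libraries and 30 over all controls, and Eif4e1b, with 0 and 5, had too few, and whether either differs cannot be seen at these counts.

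Initiation brings the small ribosomal subunit, the initiator tRNA and the mRNA together at the start codon. The factor eIF2, loaded with GTP, carries the initiator tRNA, and the exchange factor eIF2B reloads eIF2 after each round. Kinases that sense stress phosphorylate the alpha subunit of eIF2, which then blocks eIF2B, lowers general translation and favours the mRNAs of the integrated stress response such as that of Atf4. The scaffold eIF3 binds the small subunit, while eIF4E, eIF4G and eIF4A bind the cap and unwind the mRNA under the control of the kinase mTOR. B lymphocytes raise their translation capacity when they are activated and divide.

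The fibrosis group held 5 libraries from mice given intraperitoneal carbon tetrachloride, a liver toxin, for 4 weeks. The control group held 5 libraries from wildtype mice. Strain, sex, age, a vehicle injection in the controls and the way B cells were isolated are not stated in the labels, nor is it said that each library came from its own animal. P-values therefore measure only how these libraries vary, and part of that variation may be technical.

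Libraries held 13439100 to 17954551 counts. All 11 B cell markers were detected and tested, with a summed level of 16980 to 24910 CPM (counts scaled by library size) in fibrosis and 13890 to 15740 in control, and 5 of the 11 were called higher. Markers of other cell types moved too, in a comparison where 18.6% of all tested genes were called higher and 17.2% lower. Of 19 tested erythroid markers 14 were lower (sums of 1260 to 8227 CPM in fibrosis and 4771 to 7557 in control), and all 20 cell cycle markers were lower (1505 to 2324 against 4113 to 5323). All 9 tested platelet markers were higher (381 to 1527 against 225 to 286), as were 5 of 10 dendritic cell markers (332 to 455 against 240 to 274) and 4 of 9 NK cell markers (85.1 to 177 against 74.5 to 126). T cell markers were higher in 2 of 11, near the share of all genes (89.3 to 161 against 78.0 to 105). Plasma cell markers were higher in 2 of 7 (675 to 905 against 626 to 781). The summed neutrophil markers ranged from 420 to 4682 CPM in fibrosis and from 706 to 1830 in control, and the summed macrophage markers from 914 to 3286 and from 1317 to 2326 CPM, with 1 of 10 macrophage markers called higher. Both sums were highest of all libraries in fibrosis 4 and 5. No listed marker was at 0 counts in all libraries. The part of these other cells and of dividing cells in the results below was not tested, and in bulk libraries fewer cells of a type and less RNA per cell cannot be told apart. Fibrosis 4 and 5 stood apart in this way, and where leaving both out changed a call, the text gives the value without them or names the gene.

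The stretches upstream of 3 genes of the cap-binding complex are shown because these genes gave the largest decrease among the members (Eif4g1) and the largest difference among the gene pairs tested (Eif4a1 and Eif4a2). Each runs from 250 to 31 bases before the RefSeq start site (GRCm38.p6, 220 bases, 5′ to 3′ on the strand of the gene). Capitals mark CACGTG, the E-box letters that the growth regulator Myc and related factors can bind. Eif4g1 lies at chr16:20672477-20672696 on the plus strand, Eif4a1 at chr11:69672454-69672673 on the minus strand and Eif4a2 at chr16:23107218-23107437 on the plus strand.
Eif4g1: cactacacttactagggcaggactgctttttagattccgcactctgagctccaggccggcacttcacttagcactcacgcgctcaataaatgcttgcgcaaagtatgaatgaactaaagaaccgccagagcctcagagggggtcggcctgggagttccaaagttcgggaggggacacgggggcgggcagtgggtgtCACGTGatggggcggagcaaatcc
Eif4a1: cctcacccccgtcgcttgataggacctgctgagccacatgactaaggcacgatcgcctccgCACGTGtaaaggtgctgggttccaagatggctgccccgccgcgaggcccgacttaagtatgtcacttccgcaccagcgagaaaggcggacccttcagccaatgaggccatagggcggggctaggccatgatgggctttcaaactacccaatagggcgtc
Eif4a2: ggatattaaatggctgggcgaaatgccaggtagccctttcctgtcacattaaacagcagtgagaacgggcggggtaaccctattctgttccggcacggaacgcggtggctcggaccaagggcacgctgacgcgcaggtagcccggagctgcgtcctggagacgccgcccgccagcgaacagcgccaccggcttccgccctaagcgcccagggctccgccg
Within the printed stretches, these letters stood at position -54 in Eif4g1 and at position -189 in Eif4a1, counted from the start site, and were not in that of Eif4a2. Eif4g1 held them once more at position 16 after the start, outside the printed stretch. RefSeq promoter windows, from 250 bases before to 50 after the start, were matched for 43 of the 55 members. CACGTG, which reads the same on both strands, was in 8 of these 43 (18.6%) and in 7.24% of the windows of 27025 genes. The 27025 genes were not limited to the 14283 tested here, and no share over the tested genes was computed. It was in 2 of 15 members called lower (Eif4g1 and Eif4h), in 0 of 4 called higher and in 6 of 24 not called (Eif1b, Eif3a, Eif3f, Eif3k, Eif4a1 and Eif5a2). TGACGTCA, the cyclic AMP response element, and TGATGCAA, a form of the element bound by Atf4, searched on both strands, were in none (0) of the 43 windows, against 1.88% and 0.929% of all. GAAANNGAA, part of the interferon response element, was in 4 of the 43 (9.30%) and in 8.57% of all.

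Initiation factor mRNAs shifted unevenly between fibrosis and control, with more members lower than higher. Subunits of eIF3 were called in both directions (14.3% higher and 21.4% lower), at shares near those of all tested genes. Of the 53 tested members, fibrosis had 6 at a higher and 17 at a lower level (quasi-likelihood test of edgeR, adjusted p under 0.05). The higher members were 11.3% of those tested, against 18.6% of all 14283 tested genes. The lower members were 32.1%, against 17.2% of all tested genes. All 5 fibrosis libraries lay above all 5 controls in 3 members (5.66%, against 11.4% of all genes) and below them in 15 (28.3%, against 14.0%). The median log2 fold change, fibrosis minus control, was -0.08 over the members and 0.05 over all tested genes. Members together took 0.955% to 1.02% of the counts of a fibrosis library and 1.11% to 1.15% of those of a control library, so the groups did not overlap. With scaling by library size only, which moved the median of all genes from 0.05 to -0.06, 3 members were higher and 23 lower, and higher genes made up 35.0% of all calls in place of 52.0%. The count of higher members was also 3 without fibrosis 5 or without control 2, 4 or 5, and it was 4, beside 18 lower, without fibrosis 4 and 5.

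**Figure D1:**
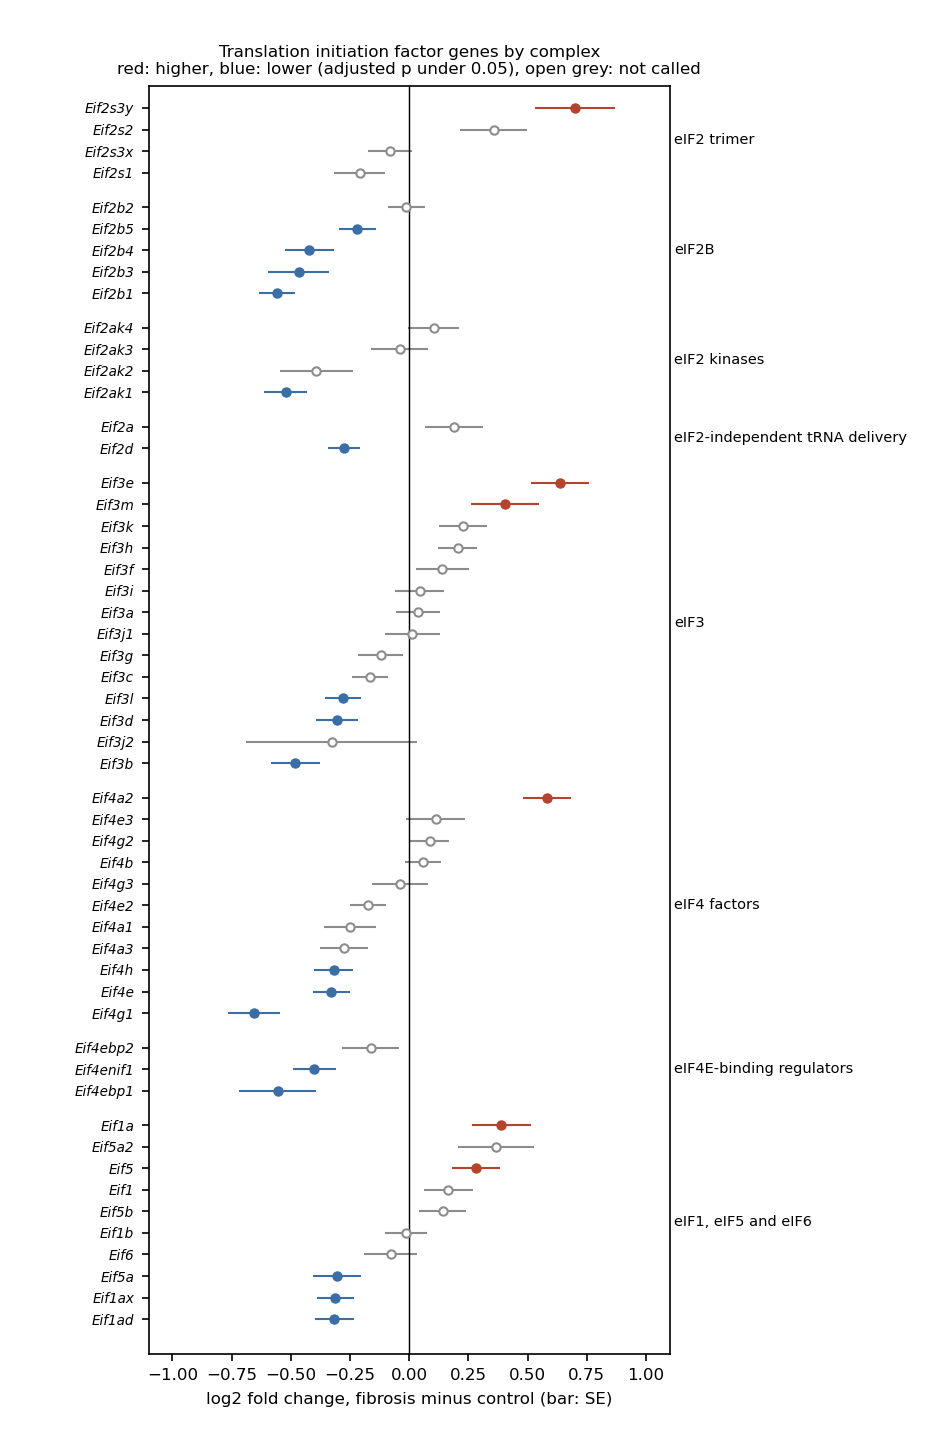
Log2 fold change of each tested member (x axis, fibrosis minus control, bars are standard errors) grouped by complex on the y axis, with red for higher, blue for lower and open grey for members not called. Of the eIF2B genes 4 of 5 are blue (17.2% of all tested genes were lower), while eIF3 runs from -0.48 for Eif3b to 0.64 for Eif3e.

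The eIF2 kinases each answer to a different stress, and only the haem-regulated one passed the test (1 of 4 lower, 25.0%, against 17.2% of all tested genes). Eif2ak1, which encodes HRI, the kinase activated by lack of haem and by mitochondrial stress, lies on chromosome 5 (143817788 to 143904251, plus strand, GRCm38). It stood at 104, 97.8, 92.3, 85.1 and 83.3 CPM in fibrosis 1 to 5 and at 132, 127, 126, 125 and 154 CPM in control 1 to 5. Every fibrosis library was below every control, and its log2 fold change was -0.52 ± 0.09 (standard error, as throughout; adjusted p = 0.00072 by edgeR). HRI is best known from red cell precursors, and erythroid markers were lower in the same comparison. The summed erythroid markers stood at 2186, 1260, 2577, 8227 and 3602 CPM in fibrosis 1 to 5. In control 1 to 5 they stood at 5797, 6276, 4771, 5574 and 7557 CPM. The part of erythroid cells in the Eif2ak1 difference was not tested. Aimp2, on the other strand, overlaps Eif2ak1 with 20.8% as many counts. No source used here gives the strand setting of the counting, so their reads cannot be told apart.

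Eif2ak2, which encodes PKR, the sensor of double-stranded RNA, stood at 16.8, 24.9, 20.8, 15.0 and 20.8 CPM in fibrosis and at 25.6, 24.5, 34.2, 22.9 and 21.9 CPM in control. Fibrosis 2 lay within the controls, and the difference was -0.39 ± 0.15 (adjusted p = 0.0623 by edgeR). This gene passed in 6 of the alternative analyses, and its adjusted p ranged from 0.00921 to 0.164 over all of them. Eif2ak3, which encodes PERK, the sensor of unfolded protein in the endoplasmic reticulum, stood at 90.2, 91.2, 107, 66.9 and 72.4 CPM in fibrosis and at 81.7, 90.6, 97.9, 80.6 and 89.5 CPM in control. Fibrosis 1, 2 and 3 lay above the control median and fibrosis 4 and 5 below every control, with a difference of -0.04 ± 0.12 (adjusted p = 0.827 by edgeR). Eif2ak4, which encodes GCN2, the sensor of uncharged tRNA, stood at 37.7, 41.9, 51.5, 36.7 and 36.3 CPM in fibrosis and at 34.5, 37.6, 40.4, 36.3 and 41.3 CPM in control. The groups overlapped, with a difference of 0.10 ± 0.11 (adjusted p = 0.486 by edgeR). Within each library the FPKM (counts per length and depth) ratio of Eif2ak4 to Eif2ak1 was 0.277 to 0.424 in fibrosis and 0.199 to 0.244 in control. The groups did not overlap and the log2 ratio differed by 0.61 (exact two-sided permutation test, p = 0.00794, adjusted p = 0.0147 over 13 gene pairs; this p is the smallest the design can give).

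**Figure D2:**
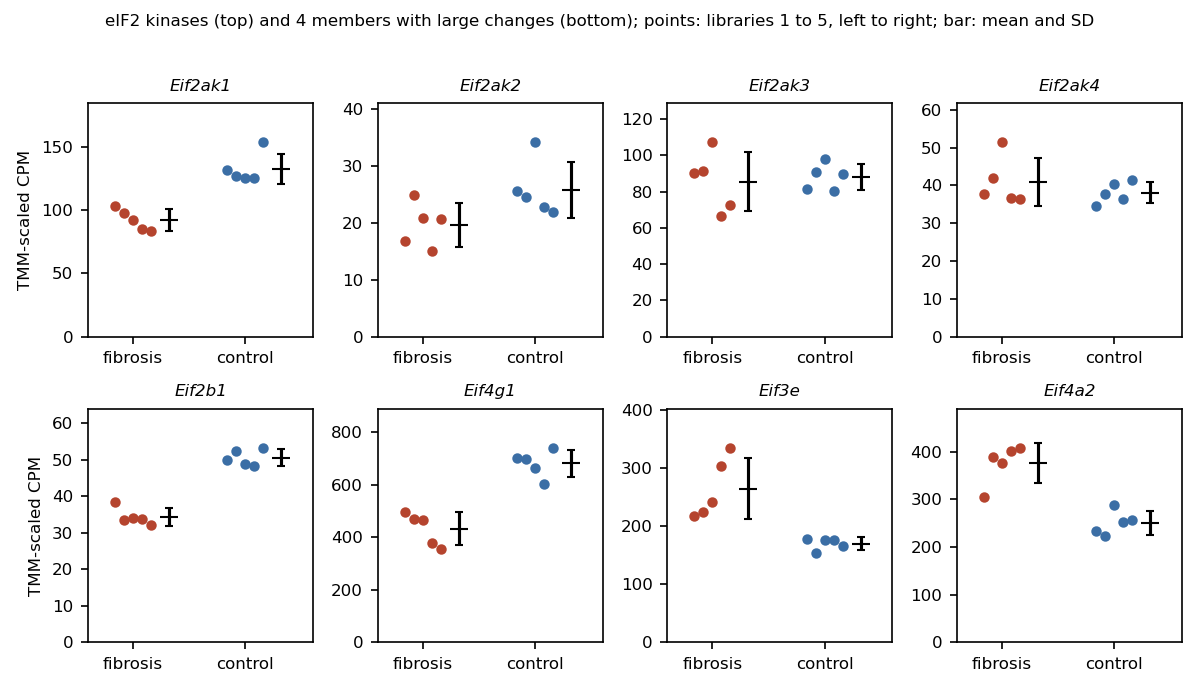
Level in CPM (y axis from 0) of the 4 eIF2 kinase genes (top row) and of Eif2b1, Eif4g1, Eif3e and Eif4a2 (bottom row), with 1 point per library and the mean with SD beside them. Eif2ak1 separates the groups, at 83.3 to 104 CPM in fibrosis and 125 to 154 in control, while the other kinases overlap.

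The substrate of these kinases, the eIF2 trimer, had 1 of 4 genes called, as higher (25.0%, against 18.6% of all tested genes). Eif2s3y, the Y-linked gene of the gamma subunit, stood at 33.4, 47.6, 69.7, 50.6 and 67.0 CPM in fibrosis and at 30.5, 31.8, 37.0, 35.1 and 30.9 CPM in control. Only fibrosis 1 lay within the controls, and the rise was 0.70 ± 0.17 (adjusted p = 0.00597 by edgeR). Its X-linked partner Eif2s3x ranged from 66.3 to 81.8 CPM in fibrosis and 65.1 to 86.6 in control (-0.08 ± 0.09, adjusted p = 0.532 by edgeR). The FPKM ratio of Eif2s3x to Eif2s3y was 1.58 ± 0.38 in fibrosis and 2.60 ± 0.40 in control (SD, n = 5 each; exact permutation test, adjusted p = 0.0229). Their open reading frames are 86.3% identical, so reads of one could be counted for the other. The Y-linked gene had counts in every library, but sex is not stated, and its part in this ratio was not tested. Eif2s1, the alpha subunit that the kinases phosphorylate, ranged from 58.8 to 85.5 CPM in fibrosis and from 77.9 to 96.2 in control (-0.21 ± 0.11, adjusted p = 0.148 by edgeR). Its 3 lowest libraries were fibrosis 1 to 3, and without fibrosis 4 and 5 the difference was -0.36 (adjusted p = 0.00709 by edgeR; 0.00709 to 0.317 over the alternatives). Eif2s2, the beta subunit, stood at 51.7 to 87.5 CPM against 47.5 to 58.0 (0.36 ± 0.14, adjusted p = 0.0648 by edgeR), with fibrosis 4 and 5 highest, and the difference was 0.10 without them (adjusted p = 0.431).

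Genes of eIF2B, the exchange factor, were lower in 4 of 5 subunits, with a median of -0.42 (3 of 5 and -0.34 without fibrosis 4 and 5). Eif2b1, the regulatory alpha subunit (chromosome 5, 124570213 to 124579131, minus strand), stood at 38.4, 33.4, 34.0, 33.8 and 32.1 CPM in fibrosis and at 49.97, 52.6, 48.9, 48.2 and 53.3 CPM in control. The fibrosis libraries lay well below the controls, a fall of -0.56 ± 0.08 (adjusted p = 0.000163 by edgeR) to 0.679 of the control level. Eif2b4, the delta subunit, stood at 64.4, 59.9, 48.4, 55.0 and 45.5 CPM in fibrosis and at 79.3, 71.6, 64.6, 75.1 and 75.6 CPM in control. The groups came close between fibrosis 1 and control 3 but did not overlap (-0.42 ± 0.10, adjusted p = 0.00667 by edgeR). Eif2b4 overlaps the more strongly counted Snx17 on the other strand. Eif2b3, the gamma subunit, stood at 15.0, 12.4, 16.3, 17.9 and 15.2 CPM in fibrosis and at 23.0, 21.2, 18.1, 18.4 and 25.4 CPM in control. Here too the groups were separate, by a narrow margin between fibrosis 4 and control 3 (-0.47 ± 0.13, adjusted p = 0.0122 by edgeR). Eif2b5, the catalytic epsilon subunit, stood at 92.1, 87.4, 78.6, 86.2 and 77.6 CPM in fibrosis and at 103.9, 97.0, 88.9, 98.7 and 102.5 CPM in control. Fibrosis 1 lay above control 3, and the fall of -0.22 ± 0.08 (adjusted p = 0.0461 by edgeR) did not pass in 15 alternatives. Left out singly, each of fibrosis 2, 3, 4 and 5 and of control 1, 2, 4 and 5 ended the call (-0.23 to -0.19, adjusted p 0.0526 to 0.111; 0.00554 to 0.116 over all alternatives), as did leaving out fibrosis 4 and 5 together (-0.18, adjusted p = 0.0955). Eif2b2, the beta subunit, was the member not called, at 75.7 to 85.1 CPM in fibrosis and 76.2 to 89.2 in control (-0.01 ± 0.08, adjusted p = 0.925 by edgeR).

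Of the factors that can deliver tRNA without eIF2, Eif2d, which also acts in ribosome recycling, stood at 58.7, 56.1, 55.5, 54.7 and 52.6 CPM in fibrosis and at 69.0, 68.8, 64.8, 66.1 and 67.4 CPM in control. All fibrosis libraries were lower (-0.28 ± 0.07, adjusted p = 0.00701 by edgeR), and Eif2d overlaps the more strongly counted Rassf5 on the other strand. Eif2a ranged from 37.1 to 60.4 CPM in fibrosis and from 38.0 to 44.4 in control (0.19 ± 0.12, adjusted p = 0.251 by edgeR).

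In eIF3, the largest factor, 2 of 14 genes were higher (14.3%, against 18.6% of all tested genes) and 3 lower (21.4%, against 17.2%). Both shares were near those of all genes. The median was 0.03 (-0.08 with scaling by library size only and also -0.08 without fibrosis 4 and 5). Eif3e, whose product contacts eIF4G (chromosome 15, 43250058 to 43282719, minus strand), stood at 216.5, 225, 241, 304 and 335 CPM in fibrosis and at 178, 153, 176, 176 and 165 CPM in control. It rose to 1.56 times the control level (0.64 ± 0.12, adjusted p = 0.00145 by edgeR), with the highest values in fibrosis 4 and 5 and every fibrosis library above the controls. Over the alternatives its log2 change ran from 0.43 to 0.70 and its adjusted p reached at most 0.00615. Eif3b, a core subunit on the surface of the small ribosomal subunit, moved the other way, at 375, 312, 298, 318 and 259 CPM in fibrosis and 461, 458, 399, 407 and 453.5 CPM in control. The groups did not overlap (-0.48 ± 0.10, adjusted p = 0.00274 by edgeR).

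Eif3l, a peripheral subunit, stood at 230.4, 222, 199, 212 and 197 CPM in fibrosis and at 265.5, 257, 246, 253.5 and 265 CPM in control. The 5 fibrosis values were the 5 lowest (-0.28 ± 0.08, adjusted p = 0.0121 by edgeR). Eif3d, a subunit that can bind the cap of some mRNAs, stood at 154, 139.9, 124, 137 and 116 CPM in fibrosis and at 172, 168, 155, 166 and 168 CPM in control. Fibrosis 1 came within a small margin of control 3, without overlap (-0.30 ± 0.09, adjusted p = 0.0159 by edgeR). Eif3m, a partner of the Eif3e module, stood at 135, 136, 140.5, 214 and 218 CPM in fibrosis and at 133, 116, 129, 126 and 132 CPM in control. Its rise of 0.40 ± 0.14 (adjusted p = 0.0437 by edgeR) was carried by fibrosis 4 and 5, without which it was 0.11 (adjusted p = 0.226; 0.0216 to 0.226 over the alternatives). Leaving out fibrosis 4 alone, fibrosis 5 alone or any 1 control also ended the call (0.30 to 0.42, adjusted p 0.0710 to 0.110 by edgeR). The other 9 members of eIF3 were not called. Eif3c had all fibrosis libraries below the controls (257 to 307 against 310 to 316 CPM) at an adjusted p of 0.111 by edgeR. Eif3j1 and Eif3j2 have 99.7% identical open reading frames, so their counts (2885 and 121 in fibrosis, 3352 and 179 in control) may be shared between them.

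**Figure D3:**
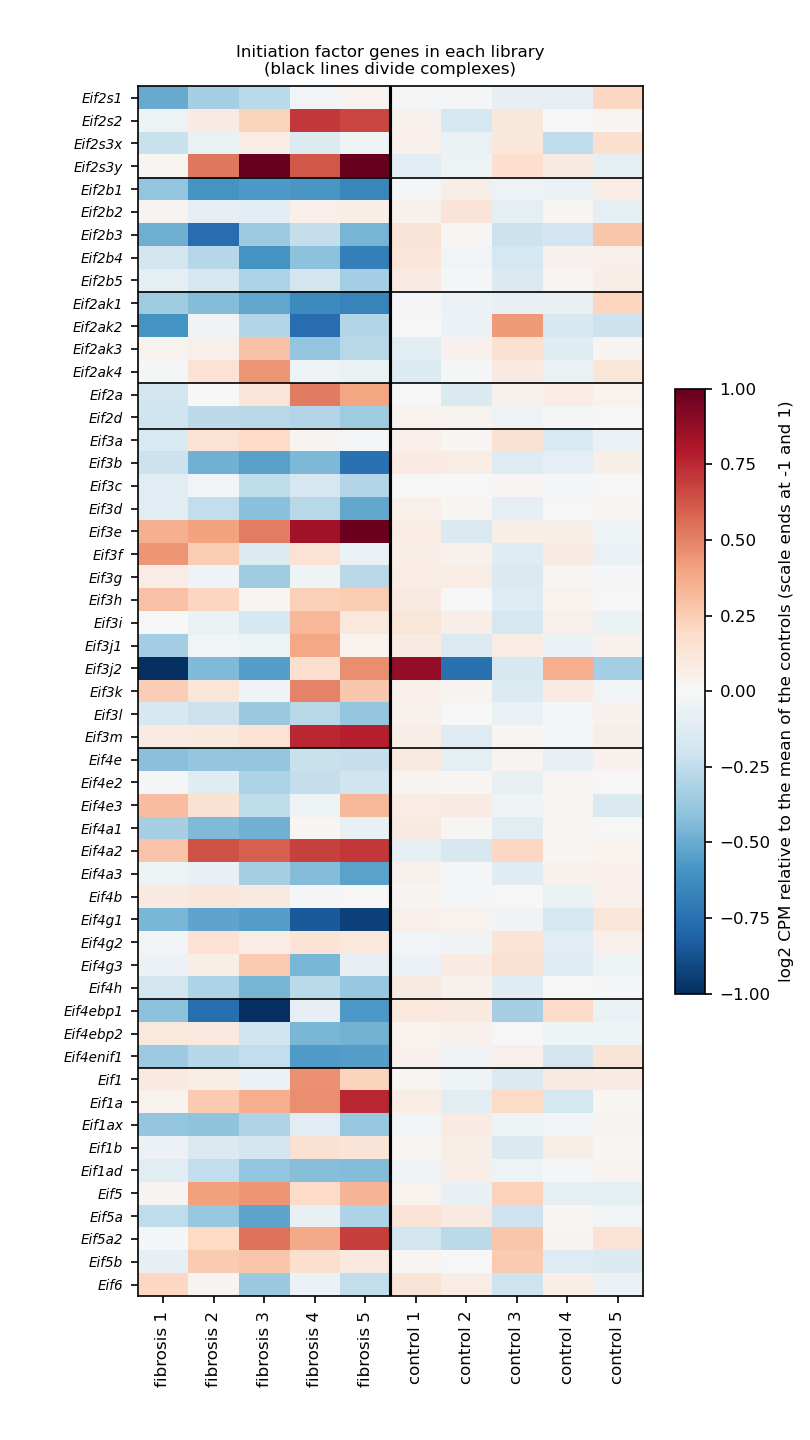
Log2 CPM of each tested member (rows, divided by complex) in each library (columns), relative to the mean of the controls, with red above and blue below it and the colour scale ending at -1 and 1. Eif3e and Eif4a2 are red and Eif4g1, Eif2b1 and Eif2ak1 blue in every fibrosis library, while Eif3m and Eif2s2 are reddest in fibrosis 4 and 5.

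Among the eIF4 factors 1 of 11 tested genes was higher (9.09%, against 18.6% of all tested genes) and 3 were lower (27.3%, against 17.2%), with a median of -0.17. Eif4g1, the main scaffold that joins the cap to the ribosome (chromosome 16, 20668313 to 20692884, plus strand), stood at 495, 471, 464, 379 and 356 CPM in fibrosis and at 703.5, 697, 665, 603 and 741 CPM in control. The highest fibrosis library was below the lowest control, and the fall to 0.635 of the control level was the largest decrease among the members (-0.65 ± 0.11, adjusted p = 0.000546 by edgeR). The printed stretch with CACGTG at -54 lies inside the deposited span of Eif4g1, upstream of an internal start. Eif4g2, a relative that lacks the site for eIF4E, ranged from 604 to 682 CPM in fibrosis and from 570.5 to 673.5 in control (0.09 ± 0.08, adjusted p = 0.441 by edgeR). Eif4g3, the closer relative, ranged from 112.5 to 185 and from 142 to 172 CPM (-0.04 ± 0.12, adjusted p = 0.827 by edgeR). The FPKM ratio of Eif4g1 to Eif4g2 was 0.926 ± 0.163 in fibrosis and 1.54 ± 0.11 in control (SD, n = 5 each), and that of Eif4g1 to Eif4g3 was 4.42 ± 0.66 and 6.70 ± 0.67. Neither ratio overlapped between groups (log2 differences of -0.75 and -0.61, exact permutation test, adjusted p = 0.0147 for each).

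Eif4a1 and Eif4a2 encode the closely related helicases of the complex, and their ratio differed between the groups. Eif4a2 (chromosome 16, 23107444 to 23114136, plus strand) stood at 304.5, 388, 377.5, 401 and 409 CPM in fibrosis and at 235, 224, 289, 251.9 and 256 CPM in control. Fibrosis 1 was nearest to the controls but above all of them, and the rise was 0.58 ± 0.10 (adjusted p = 0.000804 by edgeR), to 1.497 times the control level. Eif4a1 stood at 519, 481, 467, 661 and 619.9 CPM in fibrosis and at 694, 657.5, 603, 657 and 656 CPM in control. Fibrosis 4 and 5 lay among the controls, and the difference was -0.25 ± 0.11 (adjusted p = 0.0891 by edgeR); without these libraries it was -0.41 (adjusted p = 0.00115; 0.00115 to 0.177 over the alternatives). The FPKM ratio of Eif4a1 to Eif4a2 was 2.10, 1.53, 1.52, 2.03 and 1.87 in fibrosis and 3.64, 3.62, 2.57, 3.21 and 3.15 in control. Every fibrosis ratio was lower, by 0.84 on the log2 scale in the mean (log2 difference of -0.84, exact permutation test, adjusted p = 0.0147). The open reading frames are 78.1% identical, and small nucleolar RNA genes lie within the span of each. Rfc4, on the other strand, overlaps Eif4a2 by 194 bases and held 12.3% as many counts.

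Eif4e, the cap-binding protein, stood at 53.0, 54.3, 54.4, 60.7 and 60.6 CPM in fibrosis and at 75.6, 66.9, 72.4, 67.3 and 73.2 CPM in control. No fibrosis library reached the controls (-0.33 ± 0.08, adjusted p = 0.00493 by edgeR). Eif4h, which stimulates the helicase, stood at 436, 399, 358, 412 and 382 CPM in fibrosis and at 527, 511.5, 456, 495 and 491 CPM in control. It was lower in all 5 fibrosis libraries (-0.32 ± 0.08, adjusted p = 0.00930 by edgeR). Eif4b, the other stimulator, ranged from 537 to 585 CPM in fibrosis and from 516.5 to 560.1 in control (0.06 ± 0.08, adjusted p = 0.588 by edgeR). The ratio of Eif4b to Eif4h was higher, at 1.77 ± 0.15 against 1.36 ± 0.09 in FPKM (SD, n = 5 each; exact permutation test, adjusted p = 0.0147). Eif4a3, the helicase of the exon junction complex, stood at -0.27 ± 0.10 (adjusted p = 0.0510 by edgeR; 0.0124 to 0.202 over the alternatives). Eif4e2, a cap-binding repressor, stood at -0.17 ± 0.08 (adjusted p = 0.0923 by edgeR) and Eif4e3, another cap-binding relative, at 0.11 ± 0.13 (adjusted p = 0.523 by edgeR). The ratio of Eif4e to Eif4e3 was lower in fibrosis (log2 difference of -0.43, exact permutation test, adjusted p = 0.0229). Left out singly, control 1, 3, 4 and 5 each ended that call (-0.45 to -0.38, adjusted p 0.0573 to 0.0619), though with fewer libraries the smallest p this test can give is larger. The ratio of Eif4e to Eif4e2 did not pass (log2 difference of -0.15, exact permutation test, adjusted p = 0.172).

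Of the proteins that hold eIF4E away from eIF4G, 2 of 3 tested genes were lower (66.7%, against 17.2% of all tested genes). Their median was -0.40 (-0.29 without fibrosis 4 and 5). Eif4enif1, the transporter that takes eIF4E into the nucleus and to sites of mRNA decay, stood at 91.8, 96.9, 99.6, 80.03 and 80.7 CPM in fibrosis and at 121.5, 115, 122.5, 104 and 129 CPM in control. It separated the groups (-0.40 ± 0.09, adjusted p = 0.00410 by edgeR) and lies within the span of Drg1 on the other strand, which held 82.8% as many counts. Eif4ebp1, the classic repressor released when mTOR is active, stood at 59.0, 46.4, 36.4, 74.0 and 52.6 CPM in fibrosis and at 84.1, 83.8, 62.3, 89.5 and 74.5 CPM in control. Fibrosis 4 lay above control 3, and the fall was -0.56 ± 0.16 (adjusted p = 0.0182 by edgeR). Eif4ebp2, the repressor with the higher level here, stood at 448, 447, 363, 305 and 301 CPM in fibrosis and at 428, 429.6, 418, 406 and 406 CPM in control. Fibrosis 1 and 2 were above and fibrosis 3, 4 and 5 below the controls (-0.16 ± 0.12, adjusted p = 0.315 by edgeR). The ratio of Eif4ebp2 to Eif4ebp1 did not pass (log2 difference of 0.40, exact permutation test, adjusted p = 0.172). Without fibrosis 4 it was 0.59 (adjusted p = 0.0310) and without fibrosis 4 and 5 it was 0.75 (adjusted p = 0.0290).

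**Figure D4:**
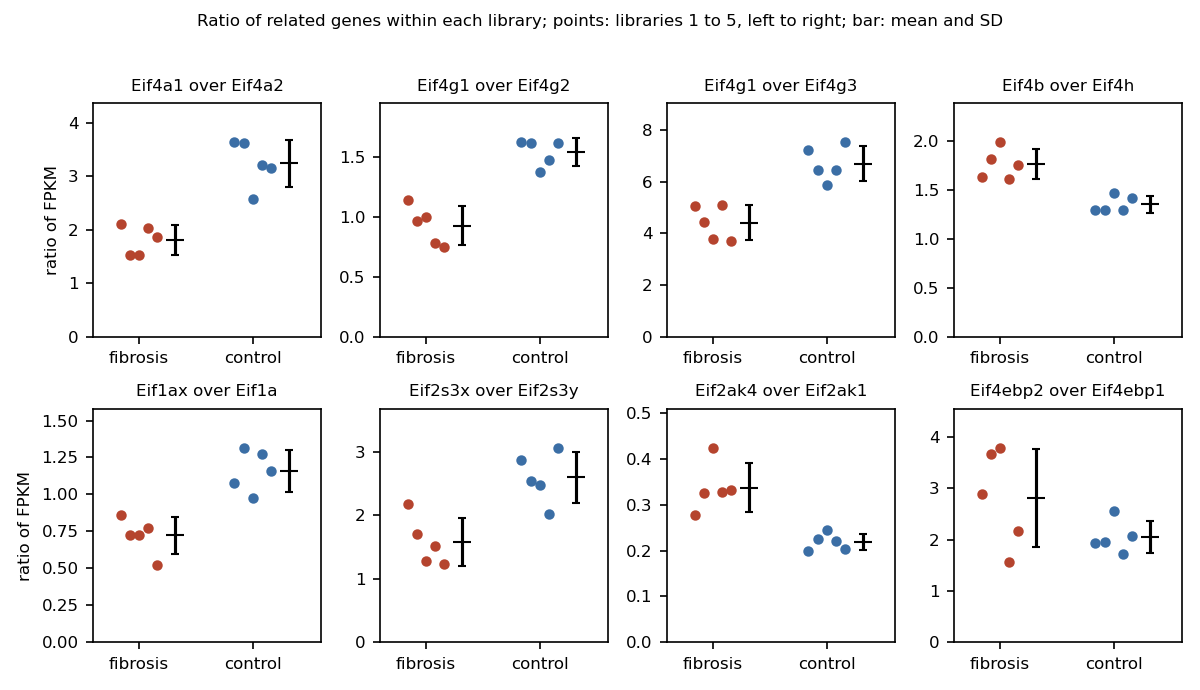
FPKM ratio of related members within each library (y axis from 0), with 1 point per library and the mean with SD beside them. The ratio of Eif4a1 to Eif4a2 is 3.24 ± 0.43 in control and 1.81 ± 0.27 in fibrosis without overlap, while that of Eif4ebp2 to Eif4ebp1 overlaps through fibrosis 4 and 5.

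The genes named for eIF1, eIF5 and eIF6 were 10, grouped by name and not by a shared step. Of these, 2 were higher (20.0%, against 18.6% of all genes) and 3 lower (17.2% of all genes were). Their median was 0.06 (-0.05 with scaling by library size only). Of these 5 calls, those of Eif1a, Eif5 and Eif5a were lost in some alternatives. The paralogs of eIF1A, which scan for the start codon, went apart. Eif1ax, the X-linked gene, stood at 58.5, 58.0, 62.1, 71.0 and 58.8 CPM in fibrosis and at 75.2, 81.0, 73.7, 75.0 and 78.0 CPM in control, all fibrosis libraries being lower (-0.31 ± 0.08, adjusted p = 0.00783 by edgeR). Eif1a stood at 37.1, 43.6, 46.8, 50.1 and 61.4 CPM in fibrosis and at 38.2, 33.6, 41.4, 32.2 and 36.9 CPM in control. Fibrosis 1 lay within the controls, and the rise of 0.39 ± 0.13 (adjusted p = 0.0269 by edgeR) became 0.23 without fibrosis 4 and 5 (adjusted p = 0.104; 0.00709 to 0.104 over the alternatives). Leaving out fibrosis 5, control 2, control 4 or control 5 also ended the call (0.28 to 0.39, adjusted p 0.0548 to 0.0703 by edgeR). The FPKM ratio of Eif1ax to Eif1a was 0.723 ± 0.124 in fibrosis and 1.16 ± 0.14 in control (SD, n = 5 each; log2 difference of -0.69, exact permutation test, adjusted p = 0.0147), for reading frames that are 85.5% identical.

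Eif1ad, a gene related to Eif1a, stood at 70.3, 63.8, 57.7, 56.3 and 56.0 CPM in fibrosis and at 74.0, 79.1, 73.0, 75.0 and 77.5 CPM in control. Its fibrosis libraries were all lower (-0.32 ± 0.08, adjusted p = 0.00927 by edgeR). Eif5a, which helps the ribosome past difficult sequences, stood at 898, 821, 744, 1017 and 866 CPM in fibrosis and at 1167, 1139, 929, 1083 and 1050 CPM in control. Fibrosis 4 exceeded control 3, and the fall of -0.30 ± 0.10 (adjusted p = 0.0339 by edgeR) did not pass once fibrosis 2, 3 or 5, or control 1, 2, 4 or 5, was left out (-0.32 to -0.27, adjusted p 0.0545 to 0.0873; 0.00309 to 0.0873 over all alternatives). Eif5, which triggers GTP hydrolysis on eIF2, was at 178 to 236 CPM in fibrosis and 162.5 to 204 in control (0.28 ± 0.10, adjusted p = 0.0424 by edgeR). That rise did not pass in 11 alternatives, among them those that leave out 1 of fibrosis 2, 3 and 5 and control 1, 2, 4 and 5 (0.22 to 0.29, adjusted p 0.0748 to 0.116; 0.0114 to 0.229 over all). Eif1, Eif1b, Eif5b, Eif6 and Eif5a2 were not called. The ratio of Eif1 to Eif1b still differed (log2 difference of 0.18, exact permutation test, adjusted p = 0.0147), as did that of Eif5a to Eif5a2 (-0.67, adjusted p = 0.0310), which lost its call without fibrosis 4 and 5 (-0.63, adjusted p = 0.0774). The same held when 1 of fibrosis 2, 3 and 5 and control 1, 2, 4 and 5 was left out (-0.71 to -0.57, adjusted p 0.0516 to 0.0619). With fewer libraries the smallest p this test can give is larger. A lost call alone therefore cannot show that the difference rests on the libraries left out. In all, 10 of 13 gene pairs passed, and Eif3j1 to Eif3j2 was the other that did not (adjusted p = 0.365). Each pair that passed, apart from Eif1 to Eif1b, holds a member also called by edgeR in the same libraries. No share over other gene pairs was computed, while 18.6% of all tested genes were higher and 17.2% lower.

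Levels per length covered a wide range. In control, Eif5a had the highest FPKM (451 ± 41.8), followed by Eif3h (232 ± 14.2), Eif3f (224 ± 14.7), Eif1 (192 ± 13.9), Eif4a1 (151 ± 8.48) and Eif3b (130.1 ± 9.77; SD, n = 5 each). The means of Eif3h and Eif3f differed by less than their SD, while each other neighbour in this order was apart by more. The lowest tested members were Eif2ak2 (5.04 ± 0.91), Eif2b3 (3.25 ± 0.49), Eif5a2 (1.58 ± 0.24) and Eif3j2 (0.838 ± 0.385). Of the 4 kinases in control, Eif2ak1 had the highest mean FPKM (23.4 ± 2.2), ahead of Eif2ak3 (14.6 ± 1.1), Eif2ak4 (5.09 ± 0.36) and Eif2ak2 (5.04 ± 0.91), and the last pair differed by less than their SD. In fibrosis Eif2ak1 (16.1 ± 1.9) and Eif2ak3 (14.0 ± 2.9) differed by less than the SD of Eif2ak3, and both lay above Eif2ak4 (5.395 ± 0.880) and Eif2ak2 (3.78 ± 0.73; SD, n = 5 each).

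**Figure D5:**
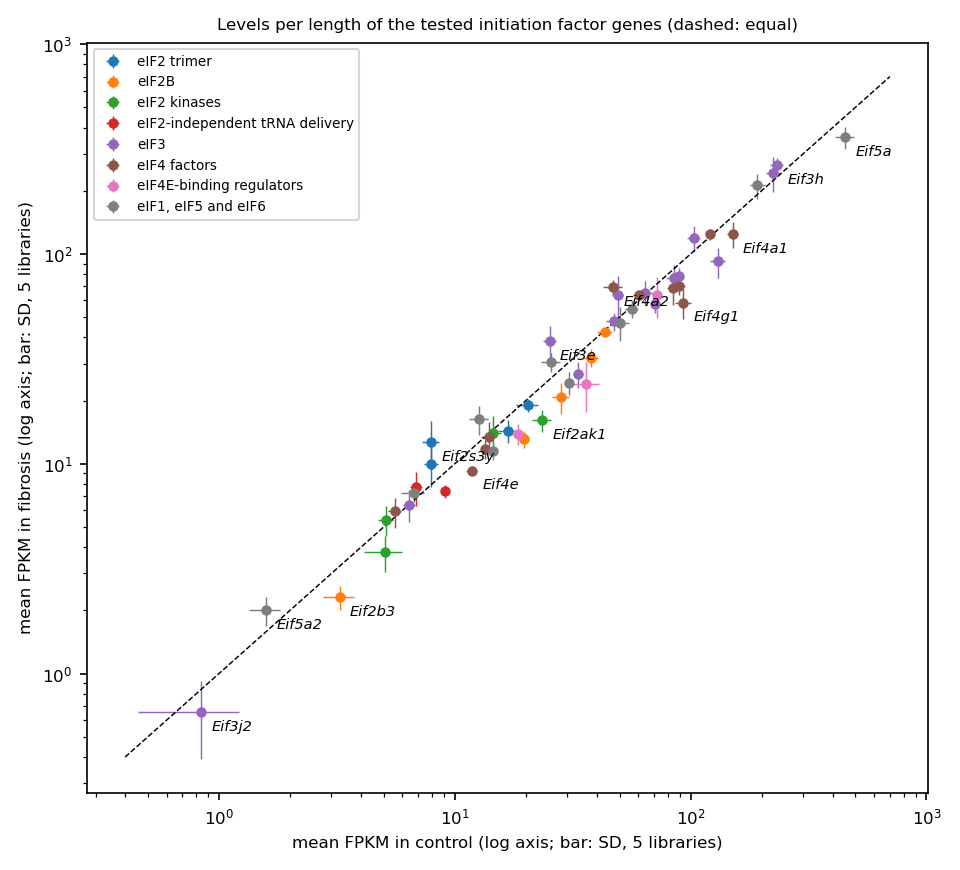
Mean FPKM of each tested member in control (x axis, log scale) and fibrosis (y axis, log scale), coloured by complex, with SD bars over 5 libraries and a dashed line where both are equal. Eif5a is highest at 451 in control and 360 in fibrosis, Eif3j2 is lowest, and Eif4g1 lies below and Eif4a2 and Eif3e above the line.

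Genes around these factors were read from lists, of which 102 genes were tested. Of these, 15 were higher (14.7%, against 18.6% of all tested genes) and 29 lower (28.4%, against 17.2%), and without fibrosis 4 and 5 the counts were 14 and 24. Regulators of eIF2 phosphorylation had 3 of 13 higher (23.1%) and 4 lower (30.8%), with a median of -0.05. Without fibrosis 4 and 5 they had 3 higher and 3 lower, since Ppp1cc, a catalytic subunit of protein phosphatase 1, lost its call (adjusted p = 0.135). Ppp1r15b, the constant partner of the phosphatase that restores eIF2, stood at 216, 214.5, 202.5, 188 and 193 CPM in fibrosis and at 277, 259, 271.5, 255 and 323.5 CPM in control. The groups were apart (-0.45 ± 0.09, adjusted p = 0.00163 by edgeR). Dele1, the mitochondrial messenger that activates HRI, was lower too (-0.56 ± 0.11, adjusted p = 0.00203), and its 5 fibrosis values (34.0 to 53.7 CPM) lay below the controls (58.2 to 68.9). The stress-induced phosphatase partner Ppp1r15a stood at -0.44 ± 0.13 (adjusted p = 0.0156 by edgeR), with fibrosis 3 and control 3 almost equal (46.7 CPM each). Impact, an inhibitor of GCN2, rose by 0.75 ± 0.19 (adjusted p = 0.00707 by edgeR) and Nck1, an adaptor that recruits a phosphatase to eIF2, by 0.48 ± 0.12 (adjusted p = 0.00740).

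Targets of the integrated stress response had 1 of 21 higher (4.76%, against 18.6% of all genes) and 6 lower (28.6%, against 17.2%), with a median of -0.02. Atf4, the transcription factor of the response, stood at 201, 183, 192, 214 and 197 CPM in fibrosis and at 233, 241, 228, 241 and 295 CPM in control. It was lower in all 5 fibrosis libraries (-0.33 ± 0.09, adjusted p = 0.0118 by edgeR), and only its mRNA level was measured, not its translation. Asns, the asparagine synthetase gene, stood at 32.4, 15.1, 28.2, 46.2 and 10.9 CPM in fibrosis and at 117, 103, 84.7, 91.6 and 112.5 CPM in control. It was far below the controls throughout (-1.94 ± 0.33, adjusted p = 0.000977 by edgeR). Aldh18a1 of proline synthesis (-1.03 ± 0.10), Psat1 of serine synthesis (-0.65 ± 0.08) and Shmt2 of mitochondrial one-carbon metabolism (-0.65 ± 0.12) fell as well (adjusted p of 2.60e-05, 0.000105 and 0.000929 by edgeR). Genes of biosynthesis are also used by dividing cells, whose markers were all lower here, and any link between them was not tested. Ddit3, the stress factor CHOP, was not called (-0.15 ± 0.14, adjusted p = 0.433 by edgeR). Ddit4, an inhibitor of mTORC1, was the higher one, at 230, 363, 112, 205 and 272 CPM in fibrosis and 98.8, 114, 94.6, 122 and 123 CPM in control. Fibrosis 3 lay within the controls (1.097 ± 0.242, adjusted p = 0.00426 by edgeR).

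Of genes of mTORC1 and MNK signalling to eIF4, 4 of 21 were higher (19.0%, close to the 18.6% of all genes) and 7 lower (33.3%, against 17.2%), with a median of -0.08. Without fibrosis 4 and 5 the lower ones were 4, since the mTORC1 inhibitor Tsc2 (-0.42, then -0.18 with adjusted p = 0.124), the mRNA-binding mTORC1 target Larp1 (-0.37, then -0.19 with adjusted p = 0.0914) and the eIF4E kinase Mknk1 (-0.18, then -0.16 with adjusted p = 0.0683) lost their calls. Over all alternatives at the threshold of 0.05 these 3 lost them in 10, 7 and 12. Mtor itself ranged from 51.3 to 88.0 CPM in fibrosis and from 70.1 to 89.1 in control (-0.21 ± 0.14, adjusted p = 0.265 by edgeR), and stood at 0.00 without fibrosis 4 and 5 (adjusted p = 0.989; 0.0975 to 0.989 over the alternatives). Pdcd4, which holds eIF4A inactive, rose by 0.62 ± 0.14 (adjusted p = 0.00323 by edgeR), every fibrosis library (113 to 179 CPM) being above the controls (76.7 to 109.7). Sesn1, which restrains mTORC1 when leucine is short, rose by 0.86 ± 0.14 (adjusted p = 0.000440), while Rps6kb2, an S6 kinase, fell by 0.44 on the log2 scale (adjusted p = 0.00263) and Ppm1g, a phosphatase of the eIF4E-binding proteins, by 0.77 (adjusted p = 0.000207). Among other initiation and cap-binding proteins, 6 of 23 were higher (26.1%, against 18.6% of all genes) and 3 lower (13.0%, against 17.2%), with a median of 0.02. Without fibrosis 4 and 5 the counts were 3 and 4, as the higher calls of Mcts1 (0.40, then 0.15 with adjusted p = 0.283), Cyfip1 (0.25, then 0.21 with adjusted p = 0.0615) and Bzw1 (0.29, then 0.22 with adjusted p = 0.0656) were lost and the cap-binding gene Ncbp2 passed as lower (-0.39, adjusted p = 0.00844). These 3 calls were lost in 15, 12 and 9 alternatives. Pabpc1, the main poly(A)-binding protein, stood at 992.5 to 1239 CPM in fibrosis and 1063 to 1154 in control (0.02 ± 0.09, adjusted p = 0.874 by edgeR). Its relative Pabpc4, a form known to be induced in activated T cells, stood at 222, 187, 216, 176 and 125 CPM in fibrosis and at 449, 414, 402, 364 and 530.0 CPM in control, a fall of -1.22 ± 0.15 (adjusted p = 7.46e-05). The poly(A)-binding protein inhibitors Paip2b and Paip2 rose by 0.59 ± 0.10 and 0.34 ± 0.08, and the activator Paip1 by 0.35 ± 0.08 (adjusted p of 0.000429, 0.00463 and 0.00507 by edgeR).

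Factors of elongation and release had 1 of 14 higher (7.14%, against 18.6% of all genes) and 4 lower (28.6%, against 17.2%), with a median of -0.03. Without fibrosis 4 and 5 the counts were 3 and 4, with Eef1a1 and Eef2 now higher (adjusted p = 0.0128 and 0.0167), Eef1e1 now lower (adjusted p = 0.000790) and the ribosome rescue gene Pelo no longer called (-0.38, adjusted p = 0.0925). Eef2k, the kinase that inactivates elongation factor 2, fell by -0.90 ± 0.11 (adjusted p = 7.40e-05 by edgeR), at 37.8 to 50.8 CPM against 69.8 to 95.2, and the release factor gene Gspt1 and the ribosome rescue gene Hbs1l fell by -0.38 ± 0.08 and -0.43 ± 0.10 (adjusted p of 0.00354 and 0.00393). Eef1b2, a subunit of the exchange factor of elongation, rose by 0.41 ± 0.11 (adjusted p = 0.00980; 0.26 without fibrosis 4 and 5, adjusted p = 0.0210). Mitochondrial translation factors had 5 of 10 lower (against 17.2% of all genes) and the other 5 not called, with a median of -0.16. Without fibrosis 4 and 5 the lower ones were 3, since Tufm and Gfm2 lost their calls, and Gfm2, a factor of mitochondrial ribosome recycling (-0.31, then -0.19 with adjusted p = 0.140), lost it in 8 alternatives. Gfm1, the mitochondrial elongation factor G, stood at 40.5, 39.7, 39.8, 37.3 and 31.7 CPM in fibrosis and at 64.3, 63.8, 58.0, 61.2 and 66.1 CPM in control (-0.73 ± 0.09, adjusted p = 6.00e-05 by edgeR). The fibrosis libraries lay far below the controls. Mrrf of ribosome recycling fell by -0.36 ± 0.11 (adjusted p = 0.0171). Tufm (-0.45 ± 0.13, adjusted p = 0.0131 by edgeR), the mitochondrial elongation factor Tu, did not pass without fibrosis 4 and 5 (-0.33, adjusted p = 0.0581; from 0.000405 over the alternatives), and its partner Tsfm (-0.35 ± 0.11, adjusted p = 0.0227) lost it without control 1 or 2 (up to 0.0629).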

How the data were processed

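Poly(A) mRNA of splenic B cells was sequenced in 5 fibrosis and 5 control libraries, per the labels' protocols. The authors deposited whole-number counts per gene and FPKM, which equal the counts over gene length and library total times a factor per library of 0.935 to 1.07. The build is GRCm38 (mm10), per the submitters' processing notes; the sources used here name no aligner, counter or strand setting. Members and lists were chosen with earlier results of these data known.

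Counts of 13439100 to 17954551 per library were filtered (filterByExpr, 14283 genes kept), scaled by TMM and compared by edgeR 4.0.16 in R 4.3.3 (quasi-likelihood test, robust, no covariate, Benjamini-Hochberg adjustment over all tested genes), and CPM refer to the TMM-scaled library size. The standard error is the absolute log2 fold change over the square root of F. Log2 count ratios of 13 gene pairs (0.5 added to each count) were compared by an exact permutation test over all assignments of the libraries, adjusted over the pairs. Given in full are the 4 kinases and, in each other complex, up to 4 called members with the smallest p; in the lists, up to 4 called genes plus Atf4, Ddit3, Ppp1r15a, Mtor and Pabpc1. Alternatives were other scalings and filters, DESeq2 1.42.0, limma 3.58.1 (voom; log2 of FPKM plus 1 or 0.1), protein-coding genes only, a replicate block, a stricter threshold and left-out libraries; for the lists these were added after the data were seen. The code was tested on simulated counts. Gene models are those of the table; 52 of 55 members have the same coordinates in GENCODE vM21, and promoter sequences come from RefSeq.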

Additional observations from a re-analysis of the deposited data

Results flagged for a closer look

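In 5 of 132 groups of 5 libraries tested, 1 library stood far from the other 4 of its group, and chance alone flags about 1 in 20 groups. Eif2ak1 stood at 153.9 CPM in control 5, where the other controls held 125.4 to 131.5. Eif2s1 was also high in control 5, at 96.2 CPM against 77.89 to 82.6 in the others. Eif4a2 was lowest in fibrosis 1, at 304.5 CPM against 377.5 to 408.6, and yet above the controls. Eif3h stood at 379.8 CPM in fibrosis 3, where the others held 435.5 to 458.9. Eif1b stood at 57.33 CPM in control 3 against 63.61 to 65.87.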

How the results depend on the processing

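No member or gene pair with a call reversed under any alternative, and 18 of the 23 called members kept direction and call in all those at the threshold of 0.05. Eif3m, Eif1a, Eif5, Eif2b5 and Eif5a lost their calls in some, 14 of the 23 passed at an adjusted p under 0.01, where Eif2b3, Eif3d, Eif3l and Eif4ebp1 failed too, and 39 values without a call changed sign. Members higher numbered 3 with library size only and 3 at an adjusted p under 0.01, and 3 to 8 when 1 library was left out. Members lower numbered 11 at an adjusted p under 0.01 and 15 to 19 when 1 library was left out. All genes higher numbered 1547 at an adjusted p under 0.01. With library size only, the medians were -0.53 for eIF2B, -0.15 for eIF2-independent tRNA delivery, -0.082 for eIF3, -0.28 for the eIF4 factors, -0.50 for the eIF4E-binding regulators and -0.045 for eIF1, eIF5 and eIF6, while the median of all genes moved from 0.045 to -0.062. Without fibrosis 4 and 5 the medians were -0.081 for eIF3 and -0.29 for the eIF4E-binding regulators; the cause was not tested. Genes of the surrounding lists called higher fell from 15 to 9 with no filter on low counts, and those called lower from 29 to 17 at an adjusted p under 0.01. Of the 44 called, 29 kept their call in every alternative at the threshold of 0.05 and 25 of these also passed at 0.01; all these alternatives were chosen for the lists after seeing the data. Replicate numbers did not pair the libraries (correlations of same-numbered deviations from -0.248 to 0.419), and with the replicate number as a block 6 members were higher and 18 lower. Depth limited the weakest member most, since Eif3j2 (121 and 179 counts) had a standard error of 0.36, where the median over members was 0.10.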
